A study of Mus musculus with 30 samples.

Results

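The 1584 accessible regions described here are the peaks, of 38526 in the deposited peak atlas, whose start lies within 35 Mb of 44988181 on mouse chromosome 14, where the Ptger2 peak begins, or of 5243535 on chromosome 15, where the Ptger4 promoter peak begins (mm10). The Ptger2 window held 1207 peaks, between 10315706 and 79660903, and the Ptger4 window held 377, between 3069525 and 39942826. The Ptger4 window is cut short on one side by the start of the chromosome. Both receptors were targeted in the mutant mice, and the members were set out to see how chromatin around a targeted allele compares with chromatin elsewhere. The rule for a member uses position alone, but the windows were chosen with earlier results of these data known. All 1584 members had enough reads to be tested.

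The assay was ATAC-seq, which reads out open chromatin through the cuts a transposase makes in it, and the cells were cultured natural killer (NK) cells from mouse spleens. The EP2/EP4-deficient cells, called KO here, came from GzmbCre Ptger2-/- Ptger4fl/fl mice. In these mice Ptger2 is lost in every cell, and the floxed part of Ptger4 is removed in cells that have expressed the Cre driven by granzyme B regulatory sequence. The WT cells came from C57BL/6J mice and carried neither the Cre nor the floxed allele. Cells of both genotypes were grown in IL-2 and IL15:IL15Ra over 5 days and then kept for 5 h with PGE2 at 100 ng/ml or without it (untreated). The stimulated cells had the activating receptor NK1.1 engaged during the final 4 h, 1 h into the treatment. This gave 4 conditions per genotype. KO cells had 3 libraries in the untreated unstimulated condition and 4 in each other one, and WT cells had 3 in the PGE2 unstimulated condition and 4 in each other one, so that 15 KO and 15 WT libraries were compared. The labels do not say whether replicate libraries came from separate animals, so p-values measure the spread between these libraries. The Cre was present in KO cells only, and the strain in which each allele was made and the number of backcrosses are not given in the sources used here. Effects of lost receptors, of the Cre and of strain-derived DNA around the alleles cannot be told apart in this design.

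Libraries held between 8444350 and 20153816 reads in peaks. Promoter peaks were found for 8 of 8 NK cell marker genes, with means between 173 and 1790 normalised reads in KO libraries and between 210 and 1910 in WT libraries. Promoter peaks were found for 3 of 9 T cell markers, and 1 each of 7 B cell, 7 myeloid and 5 erythroid markers. None of these 6 promoters outside the NK list was called between genotypes in untreated cells. On the NK list 2 of the 8 promoters were called in untreated unstimulated cells.

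Ptger2 and Ptger4 encode EP2 and EP4, the receptors for prostaglandin E2 that couple to stimulatory G proteins and raise cyclic AMP, which restrains NK cell killing and cytokine release. Cyclic AMP acts in part through CREB-family factors, which bind sites with the core letters TGACG. An accessible peak usually marks a promoter or an enhancer, and a read is placed where the sequenced DNA is close enough to the reference genome. In breeding, a targeted allele travels with neighbouring DNA of its chromosome.

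The promoters of 4 genes are shown because the results return to them. Ptger2 and Ptger4 are the targeted genes, Lgals3 has the promoter peak nearest Ptger2 that was higher in KO cells in every condition, and Entpd4b belongs to a stretch of paired peaks in which every peak was lower. Each sequence is the RefSeq stretch (GRCm38.p6, the mm10 assembly) from 250 bases before to 50 after the gene's start, 5′ to 3′ on the gene's own strand, with capitals marking TGACG or its reverse complement CGTCA. The strands and places are chr14:44987861-44988160 plus for Ptger2, chr15:5244138-5244437 minus for Ptger4, chr14:47373610-47373909 plus for Lgals3 and chr14:69555151-69555450 plus for Entpd4b.
Ptger2: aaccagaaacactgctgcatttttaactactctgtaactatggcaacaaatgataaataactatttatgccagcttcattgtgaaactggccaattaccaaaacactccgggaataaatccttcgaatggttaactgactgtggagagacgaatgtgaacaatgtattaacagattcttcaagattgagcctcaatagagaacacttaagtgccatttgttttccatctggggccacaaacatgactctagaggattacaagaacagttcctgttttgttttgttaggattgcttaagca
Ptger4: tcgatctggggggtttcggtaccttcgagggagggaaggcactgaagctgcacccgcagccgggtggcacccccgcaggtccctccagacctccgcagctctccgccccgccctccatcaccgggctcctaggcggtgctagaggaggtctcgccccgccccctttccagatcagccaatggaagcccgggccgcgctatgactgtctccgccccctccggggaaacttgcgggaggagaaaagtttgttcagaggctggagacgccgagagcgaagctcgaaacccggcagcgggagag
Lgals3: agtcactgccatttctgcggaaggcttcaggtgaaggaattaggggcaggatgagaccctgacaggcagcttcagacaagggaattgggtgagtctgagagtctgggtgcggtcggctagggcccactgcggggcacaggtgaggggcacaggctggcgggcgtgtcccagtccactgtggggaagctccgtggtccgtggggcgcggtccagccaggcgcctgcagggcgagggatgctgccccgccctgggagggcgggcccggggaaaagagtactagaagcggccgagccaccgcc
Entpd4b: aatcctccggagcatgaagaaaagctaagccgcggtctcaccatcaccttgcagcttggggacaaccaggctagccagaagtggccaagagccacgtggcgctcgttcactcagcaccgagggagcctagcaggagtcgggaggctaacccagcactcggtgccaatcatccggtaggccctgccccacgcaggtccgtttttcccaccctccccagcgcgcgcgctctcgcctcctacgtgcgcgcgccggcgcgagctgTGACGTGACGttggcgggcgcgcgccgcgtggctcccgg
The core letters were found 2 times, side by side, in the Entpd4b stretch and at no place in the other 3. Of 32851 RefSeq mouse promoter stretches of this length, 6837 (20.8%) hold TGACG or CGTCA on either strand. The Ptger4 and Entpd4b stretches lie wholly inside their promoter peaks, 229 bases of the Lgals3 stretch lie in its peak, and the Ptger2 stretch ends 20 bases before its peak begins. GC content was 37.7% in the Ptger2 stretch and 67.0% in each of the other 3.

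The peak at the start of Ptger2 (chr14:44988181-44990885, annotated as promoter) was lower in KO cells in all 4 conditions. It ranged between 83.61 and 247.3 normalised reads with a median of 180.7 over the 15 KO libraries, against 559.8 to 1109 with a median of 632.7 over the 15 WT libraries. No KO library reached the lowest WT library. The log2 difference, KO minus WT and averaged over the conditions, was -2.21 ± 0.06 (SE; limma adjusted p = 1.52e-27). Within conditions it was -2.47 in untreated unstimulated cells, -2.54 with PGE2, -2.18 in untreated stimulated cells and -1.63 with PGE2 and stimulation. Its neighbours on both sides, assigned to the predicted gene Gm49364, were each called in 1 condition. The peak at 44977332 averaged 23.3 normalised reads in KO and 30.2 in WT libraries and was called in untreated stimulated cells, with means of 25.1 in KO and 55.1 in WT libraries and -1.10 on the log2 scale (limma adjusted p = 0.0334). The peak at 45005342 averaged 336 in KO and 231 in WT libraries and was called only with PGE2 and stimulation, where it was higher in KO cells by 1.51 on the log2 scale (limma adjusted p = 1.4e-06).

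Of the Ptger4 peaks, the exon peak carried the difference and the promoter peak did not. The exon peak (chr15:5241955-5243110) held 56.24 to 152.3 normalised reads in KO libraries, with a median of 86.55, against 433.5 to 685.1 in WT libraries, with a median of 553.5. The genotypes did not overlap, and the averaged log2 difference was -2.68 ± 0.08 (limma adjusted p = 9.98e-25), with -2.74, -2.88, -2.51 and -2.59 in the same order of conditions. The promoter peak (chr15:5243535-5244984), separated from it by under 1 kb, averaged 1190 normalised reads in KO and 1070 in WT libraries. Its log2 difference in untreated unstimulated cells was 0.01 ± 0.11 (limma adjusted p = 0.982), and it was called only with PGE2 and stimulation, at 0.36 (limma adjusted p = 0.00361). Further peaks assigned to Ptger4, at 5230511, 5237197 and 5262938, were called in no condition. A Ptger4 peak at 5250065 was called only with PGE2 and stimulation, at 1.59 (limma adjusted p = 3.64e-06).

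In untreated cells the regions around the alleles held a larger share of genotype differences than the rest of the genome. In untreated unstimulated cells 177 of the 1584 members (11.2%) were called, against 1.73% of all 38525 peaks tested and 1.32% of those outside both windows. Of these members 88 were higher and 89 lower in KO cells, where 1.09% and 0.636% of all peaks were. By window these were 93 peaks (7.71%) around Ptger2 and 84 (22.3%) around Ptger4. In untreated stimulated cells 156 members (9.85%) were called, against 0.724% of all peaks and 0.333% outside, with 80 (6.63%) around Ptger2 and 76 (20.2%) around Ptger4. Here 72 were higher and 84 lower, against 0.379% and 0.345% of all peaks. The members' median log2 difference was 0.012 in untreated unstimulated and 0.006 in untreated stimulated cells, against 0.004 and -0.001 over all peaks.

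The size of the background in untreated unstimulated cells rested on single libraries more than the members did. Leaving out KO replicate 3 gave 121 members and 245 peaks in all, and leaving out KO replicate 4 gave 133 and 378. Leaving out WT replicate 1 gave 140 and 330, and leaving out WT replicate 2 gave 144 and 390, against 177 and 665 with every library. In untreated stimulated cells a fit with replicate as a block called 186 members and 594 peaks in all, against 156 and 279 without it. The values given for every condition are from the fit without a block.

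With PGE2 the members' share stood above the background without stimulation and closer to it with stimulation. Without stimulation 383 members (24.2%) were called, against 14.4% of all peaks, with 253 (21%) around Ptger2 and 130 (34.5%) around Ptger4. With stimulation 707 members (44.6%) were called, against 40.2% of all peaks, with 521 (43.2%) around Ptger2 and 186 (49.3%) around Ptger4. The difference averaged over the 4 conditions was called at 730 members (46.1%), against 37% of all peaks.

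Of the members, 105 (6.63%) were called in all 4 conditions in 1 direction, against 0.363% of all peaks and 0.0947% of those outside both windows. They made up 105 of the 140 such peaks in the genome. Around Ptger2 19 were higher and 39 lower in KO cells, and around Ptger4 30 were higher and 17 lower, where 0.182% of all peaks were called in each direction. The 49 higher peaks had a median log2 difference of 1.58, between 0.49 and 4.88, and 37 of them differed at least 2-fold and 15 at least 4-fold. The 56 lower peaks had a median of -1.65, between -0.34 and -6.94, with 46 at least 2-fold and 22 at least 4-fold lower. In 83 members every KO library lay on one side of every WT library, 46 around Ptger2 and 37 around Ptger4, against 103 such peaks (0.267%) in the genome.

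By the authors' peak types, these 105 peaks were more often intergenic and less often promoters than the members or all peaks. Of the 105, 22 lie in the T cell receptor alpha locus described below. Most of these 22 are typed intergenic, although 13 overlap a V segment, so the shares rest in part on that locus. Intergenic peaks made up 51.4% of them and promoters 14.3%, whereas intergenic peaks were 32.0% of the members and 27.2% of all peaks, and promoters 26.2% and 31.3%. The lower genotype averaged under 10 normalised reads in 5 of the 49 higher peaks and 9 of the 56 lower ones.

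The same members differed with and without stimulation in libraries that were not shared. Of the 177 called in untreated unstimulated cells, 175 (98.9%) had the same sign in untreated stimulated cells and 119 (67.2%) were called there in the same direction. Of the 488 peaks called outside the windows, 453 (92.8%) had the same sign and 45 (9.22%) were called in the same direction. In reverse, 152 of the 156 members called in untreated stimulated cells (97.4%) had the same sign without stimulation. So did 120 of the 123 peaks called outside (97.6%). The shares called without stimulation in the same direction were 76.3% of those members and 36.6% of those outside peaks. As a description across peaks, which are not independent, the log2 differences of the conditions correlated at r = 0.89 (Spearman's rank correlation 0.66) over the 1584 members and r = 0.52 (rank correlation 0.48) over the 36941 peaks outside.

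**Figure D1:**
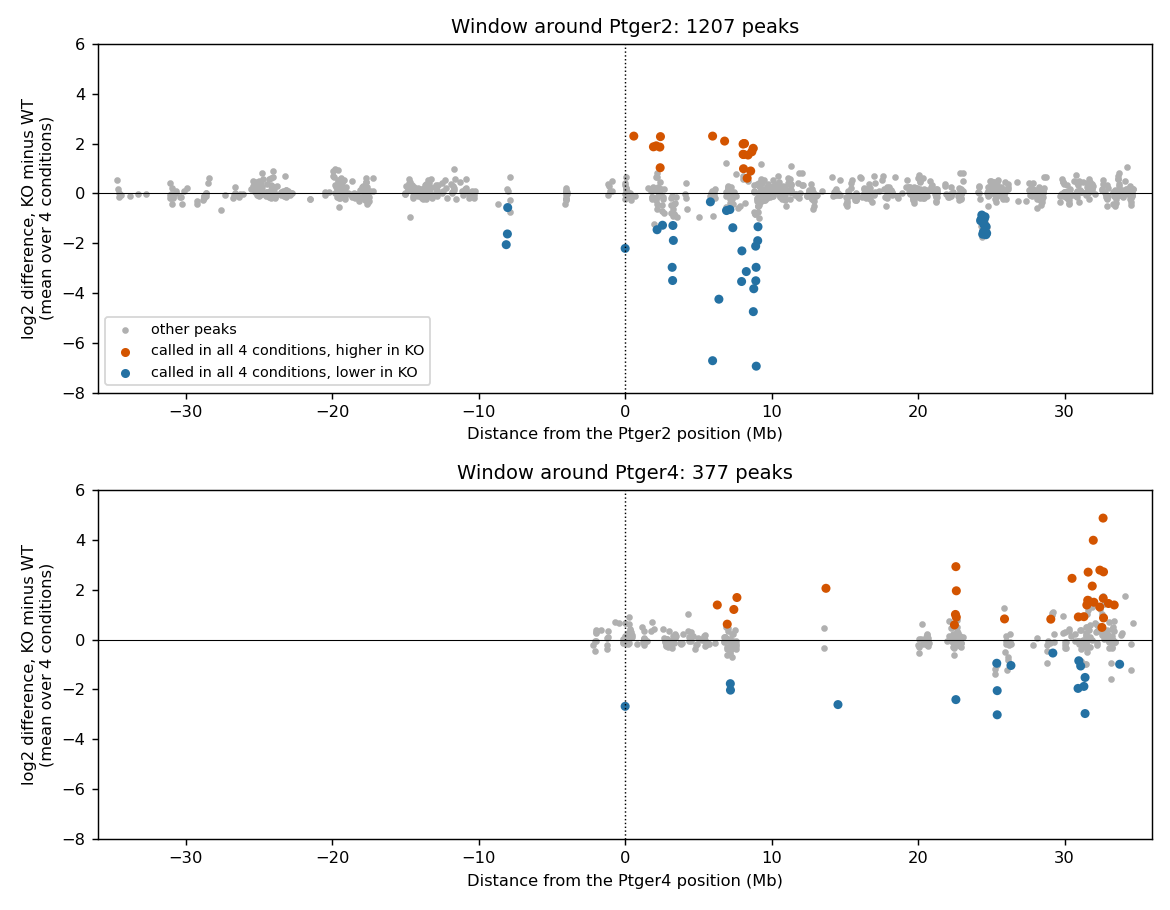
Log2 difference between KO and WT accessibility, averaged over the 4 conditions, for each member against its distance in Mb from the targeted gene, one panel per window. Coloured points mark the members called in all 4 conditions in 1 direction, 58 around Ptger2 and 47 around Ptger4. They gather in a few stretches and do not thin out evenly with distance.

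The differences did not decline steadily with distance from the targeted gene. On the side of Ptger2 towards higher coordinates, 21.3% of 75 peaks within 5 Mb were called in untreated unstimulated cells, and 33.6% of 140 peaks between 5 and 10 Mb. Between 10 and 15 Mb the share was 0.833% of 120 peaks, and between 20 and 25 Mb it was 12.3% of 122. On chromosome 15, 4.29% of 70 peaks were called within 5 Mb above Ptger4, 17.3% of 52 between 5 and 10 Mb, 15.9% of 69 between 20 and 25 Mb, 50% of 36 between 25 and 30 Mb and 30.3% of 122 between 30 and 35 Mb. In the 404 bins of 5 Mb with at least 20 peaks on the other chromosomes, the highest share was 10.8%. In untreated stimulated cells the same bins read 22.7%, 28.6%, 0% and 13.9% around Ptger2 and 1.43%, 19.2%, 15.9%, 30.6% and 32% around Ptger4. The highest share among the 404 bins was then 6.76%. Bins with under 20 peaks were left out of the 404. Among those, the bin on chromosome 5 from 15 Mb held 7 peaks called in all 4 conditions.

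**Figure D2:**
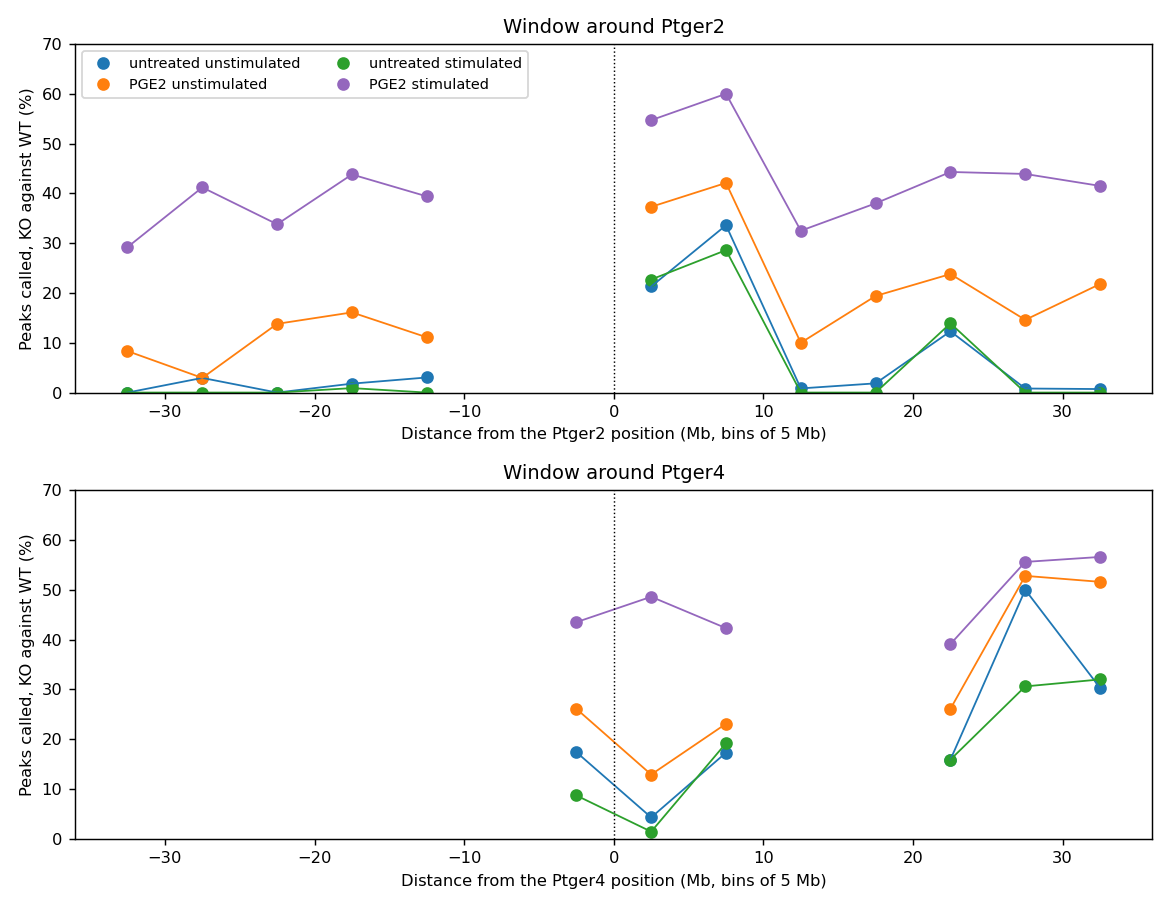
Share of peaks called between KO and WT cells, in percent, in 5 Mb bins of distance from each targeted gene, one panel per window and one line per condition, for bins with at least 20 peaks. The dotted line marks the targeted gene. In untreated cells the bins at 0 to 10 Mb and 20 to 25 Mb above Ptger2 and at 20 to 35 Mb above Ptger4 stand well above the shares outside both windows, 1.32% without and 0.333% with stimulation, and with PGE2 the whole level is higher.

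Linking peaks called in all 4 conditions that lay within 3 Mb of each other, a distance chosen after the values were seen, gave 3 stretches on chromosome 14 and 4 on chromosome 15. The longest on chromosome 14 ran 9.07 Mb from Ptger2 itself to 54.06 Mb and held 43 such peaks among 162, 19 higher and 24 lower. A stretch at 36.86 to 36.97 Mb held 3 of 5 peaks at Ccser2, all lower, and one at 69.26 to 69.67 Mb held 12 of 20, all lower. On chromosome 15 the Ptger4 exon peak stood alone. It was followed by 6 of 41 peaks at 11.53 to 12.87 Mb, 2 of 2 at 18.95 to 19.78 Mb and 38 of 181 at 27.72 to 39.01 Mb.

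The rest of the windows, which by the way the stretches were made holds no peak called in all 4 conditions, had fewer calls in untreated cells, and these were uneven. On chromosome 14, 3.53% of the 368 peaks between 54.06 and 69.26 Mb were called in untreated unstimulated and 0.815% in untreated stimulated cells. The 350 peaks below 36.86 Mb had 1.71% and 0.286% in the same conditions, and the 280 peaks above 69.67 Mb had 0.714% and 0.357%. The 22 peaks between 36.97 Mb and Ptger2 at 44.99 Mb had 0% and 9.09%. On chromosome 15 the shares were mostly above those outside both windows. They were 13.6% and 4.55% of the 22 peaks below Ptger4, 3.7% and 1.23% of the 81 between Ptger4 and 11.53 Mb, 7.32% and 9.76% of the 41 between 19.78 and 27.72 Mb, and 16.7% and 33.3% of the 6 above 39.01 Mb.

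Within the 9.07 Mb beside Ptger2, enzymes and adaptor genes had peaks of both signs. Pnp2 encodes a purine nucleoside phosphorylase. Its promoter peak (chr14:50955878-50956617) held 0 to 2.443 normalised reads with a median of 0 in KO libraries, against 135.7 to 199.2 with a median of 156.1 in WT libraries, from 12 and 2520 reads in all. No library of one genotype came near the other, and the log2 difference was -6.72 ± 0.22 (limma adjusted p = 6.5e-24). A Pnp2 intron peak that starts close by, at 50956884, went the opposite way, with 14.98 to 46.83 in KO and 1.116 to 11.93 in WT libraries and a log2 difference of 2.30 ± 0.20.

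Peli2 encodes a ubiquitin ligase of Toll-like and interleukin-1 receptor signalling, and 4 of its intron peaks were lower in KO cells in every condition. The largest of them, at chr14:48225737, held 29.44 to 90.8 normalised reads with a median of 49.09 in KO libraries and 214.1 to 1187 with a median of 646.1 in WT libraries, with no overlap. Its log2 difference was -3.50 ± 0.09 (limma adjusted p = 1.16e-26), and the other 3, at 48202105, 48274316 and 48245842, had -2.97, -1.89 and -1.29. In stimulated WT cells PGE2 raised the 48225737 peak by 2.05 on the log2 scale (limma adjusted p = 1.86e-11) and in unstimulated WT cells by 0.67 (limma adjusted p = 0.015). In KO cells its PGE2 differences were 0.09 with stimulation and -0.39 without, neither of them called. The genotype difference changed with PGE2 in stimulated cells by -1.95 (limma adjusted p = 6.03e-07).

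Higher in KO cells were an exon peak of Dlgap5, which encodes a mitotic spindle protein, and the promoter of Lgals3, which encodes the glycan-binding protein galectin-3. The Dlgap5 peak (chr14:47394902-47396654) held 395.4 to 610 normalised reads in KO libraries, with a median of 547.4, against 77.23 to 138.2, with a median of 104.2, in WT libraries. The Lgals3 promoter peak (chr14:47373681-47375520, its sequence shown above) held 542.2 to 1077, with a median of 853.9, against 300.3 to 453.4, with a median of 372. Neither gene had an overlap between genotypes, with log2 differences of 2.28 ± 0.07 at Dlgap5 and 1.03 ± 0.05 at Lgals3 (limma adjusted p = 3e-25 and 2.32e-19). The Lgals3 promoter lies 2.39 Mb above Ptger2.

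Further peaks in this stretch followed no single direction. A peak of the phospholipase gene Ddhd1 at 45582553 held 33.29 to 122.6 normalised reads in KO and 6.543 to 17.44 in WT libraries. A peak of the ribonuclease gene Ang4 at 51777644 held 35.57 to 139.7 in KO and 4.338 to 35.45 in WT libraries. Their log2 differences were 2.30 and 2.10, and neither peak overlapped between genotypes. An intron peak of the RNA-binding protein gene Samd4 at 46921307 held 24.71 to 49.11 in KO and 3.141 to 20.33 in WT libraries. A Gm10371 intron peak at 47107339 had medians of 270.9 in KO and 34.58 in WT libraries with some overlap. Lower without overlap were the promoter of Ndrg2, at 51912590, with 253 to 350.2 in KO and 383.5 to 595.9 in WT libraries, and an exon peak of the photoreceptor gene Rpgrip1, at 52140273, with 145.8 to 211.1 in KO and 245.5 to 317.8 in WT libraries. The promoter of the DNA repair gene Parp2 at 50807186 was lower by a small amount, with means of 1080 in KO and 1370 in WT libraries that overlapped between libraries and a log2 difference of -0.34. A peak of Gch1, the entry enzyme of tetrahydrobiopterin synthesis, at 47164941 averaged 66.6 in KO and 172 in WT libraries. At Ccser2, apart from this stretch, 3 peaks were lower in every condition, with no overlap at any. The intergenic peak at 36863644 held 20.6 to 76.56 in KO and 125.5 to 268.2 in WT libraries, and differed by -2.06 ± 0.11 on the log2 scale (limma adjusted p = 4.7e-17). The intron peak at 36952119 had -1.63, and the promoter at 36967933, with 373.8 to 599.8 in KO and 612.6 to 955 in WT libraries, had -0.57.

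**Figure D3:**
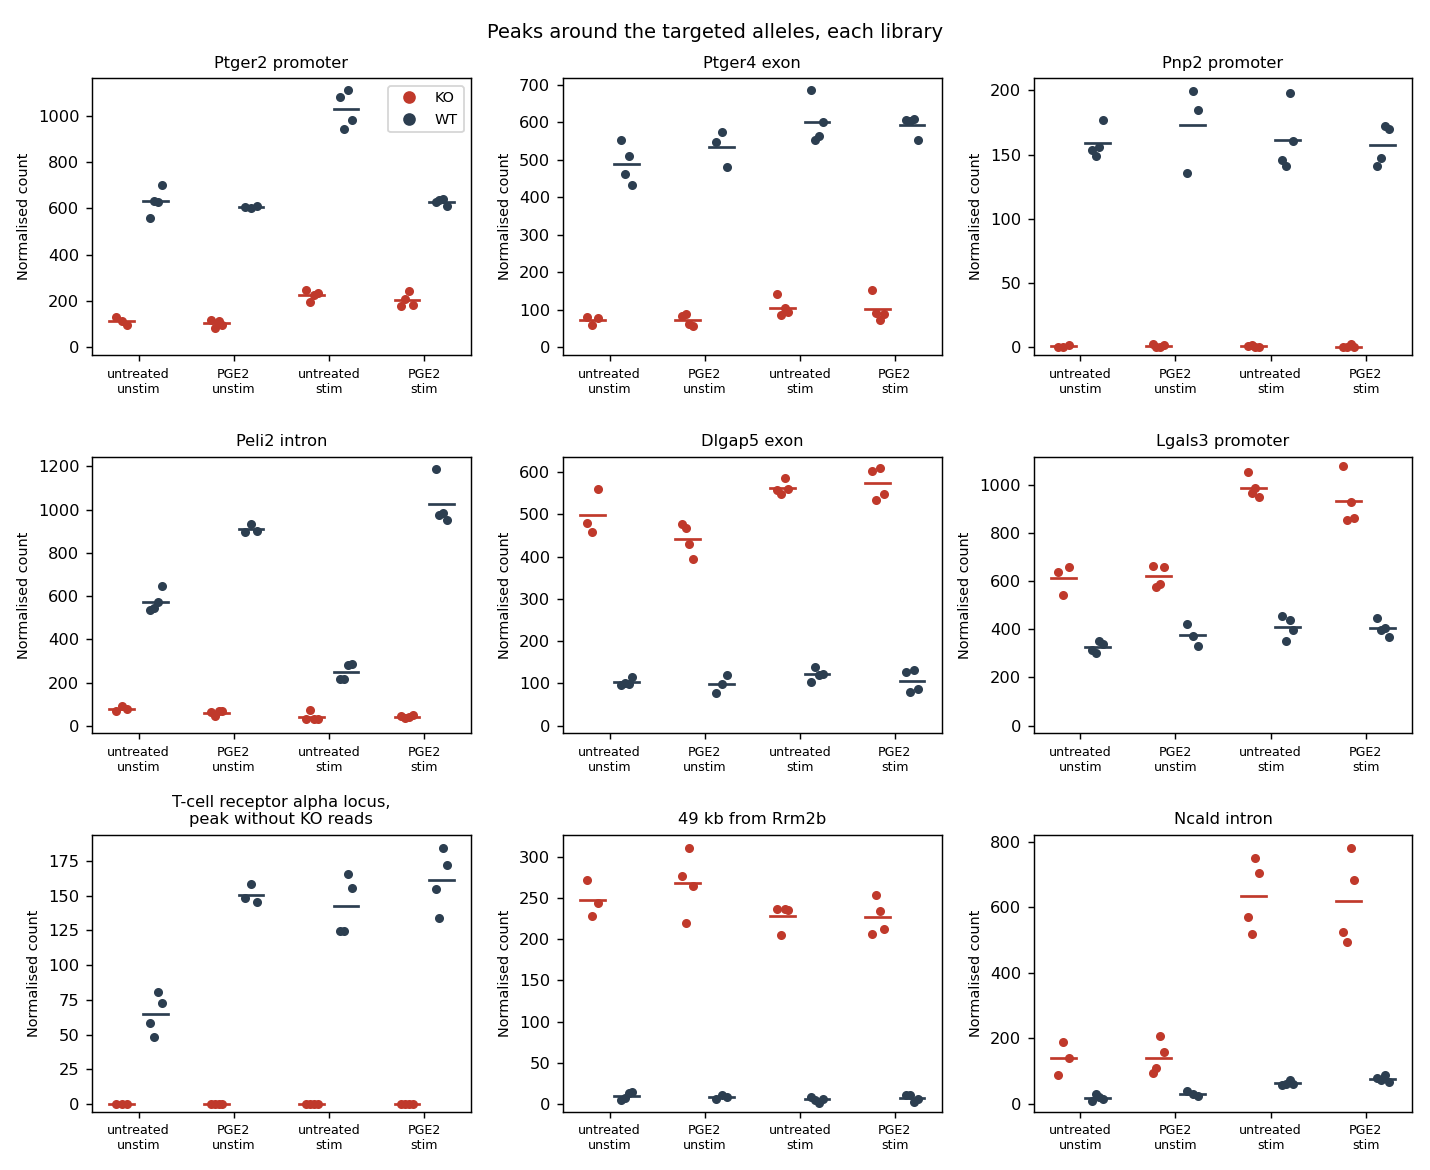
Normalised read count in each library for 9 members, one panel each with its own linear axis, with KO libraries left and WT libraries right within each condition and bars at the group means. In each panel the genotypes are apart in all 4 conditions. The Pnp2 promoter and the peak in the T cell receptor alpha locus are at or near 0 in KO libraries, and the Rrm2b-assigned and Ncald intron peaks are higher in KO libraries.

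The T cell receptor alpha locus, whose V segments are joined to J segments in T cells and are not expressed as receptor by NK cells, lies at the far end of this stretch. RefSeq places it at 52427967 to 54224198 on chromosome 14 with 136 V segments, and 61 members overlap it, most of them assigned by the authors to Dad1 or to predicted genes. Of these 61 peaks, 33 (54.1%) were called in untreated unstimulated cells and 28 (45.9%) in untreated stimulated cells, and 22 (36.1%) in all 4 conditions, 11 higher and 11 lower. Among 26 peaks that overlap a V segment, 13 were called in all 4 conditions, 7 higher and 6 lower, and among 35 that overlap none, 9 were. V segments form families of near-identical copies, so that reads could be split between copies and the single values are uncertain. The T cell marker promoters gave no call in untreated cells, as given above, and the part of other cells in these peaks was not tested further.

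The peak with the largest difference of all members lies in this locus. At chr14:53943134-53943846, assigned to Dad1, a gene for a subunit of the oligosaccharyltransferase, the 15 KO libraries held 0 reads and the 15 WT libraries 1990, or 48.59 to 184.4 normalised reads with a median of 145.3. The untreated unstimulated WT libraries were the lowest of these, with 58.1, 48.59, 80.51 and 72.85. Against 3 reads over the whole KO group, the most that a count of 0 allows, this is at least 602-fold lower in KO cells, for counting error only. Peaks over Trav16 at 53742752 and Trav15-3 at 53766327 averaged 3.68 and 3.17 normalised reads in KO libraries, against 100 and 49.3 in WT libraries. In the other direction, a peak over Trav11n at 53134508, assigned to Gm30214, held 32.38 to 99.13 in KO and 4.756 to 21.93 in WT libraries. Peaks at 53081458 and 53376944, also assigned to Gm30214, were higher by 1.56 and 1.54, while the Gm30214 peaks at 52942409 and 53253438 had log2 differences of -3.54 and -3.14, so peaks of the locus went opposite ways.

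At 24 Mb above Ptger2, a block of 21 consecutive peaks was lower in KO cells throughout. It runs 433 kb, from 69256722 to 69689396, over peaks in or near Slc25a37, Entpd4, Entpd4b and Loxl2. Slc25a37 encodes mitoferrin-1, Entpd4 and Entpd4b encode a nucleoside diphosphatase of the Golgi, and Loxl2 encodes a collagen cross-linking oxidase. All 21 peaks had lower KO means in all 4 conditions, 12 were called in all 4, 16 in at least 3 and 21 in at least 2. The ratio of KO to WT means lay between 0.28 and 0.542 with a median of 0.42, and 10 of the 21 peaks had no overlap between genotypes. The peaks on either side did not differ in this way. The Slc25a37 peak at 69248337 averaged 63.0 normalised reads in KO and 74.3 in WT libraries, and the R3hcc1 promoter at 69706828 averaged 312 in KO and 307 in WT libraries.

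Of the 21 peaks, 20 formed 10 pairs spaced 218262 to 218455 bases apart whose levels nearly matched. The ratio of the upper to the lower peak of a pair was 0.79 to 1.12 in KO and 0.88 to 1.06 in WT libraries. The Slc25a37 promoter at 69283586 averaged 475 normalised reads in KO and 986 in WT libraries, and its partner at 69501982, assigned to Gm27179, averaged 473 in KO and 977 in WT libraries. The promoter peak at 69336729, assigned to Gm16677, averaged 208 in KO and 384 in WT libraries. Its partner at 69555039, assigned to Gm27174 and holding the Entpd4b stretch shown above, averaged 198 in KO and 384 in WT libraries. The Entpd4 peak at 69397995 and the Loxl2 peak at 69616305 averaged 73.2 and 72.1 in KO libraries, against 227 and 226 in WT libraries. No genome sequence was compared here, and if the paired peaks are near-identical copies, reads of one could have been counted at the other, so that their single values are uncertain. The block was picked out after its values were seen.

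**Figure D4:**
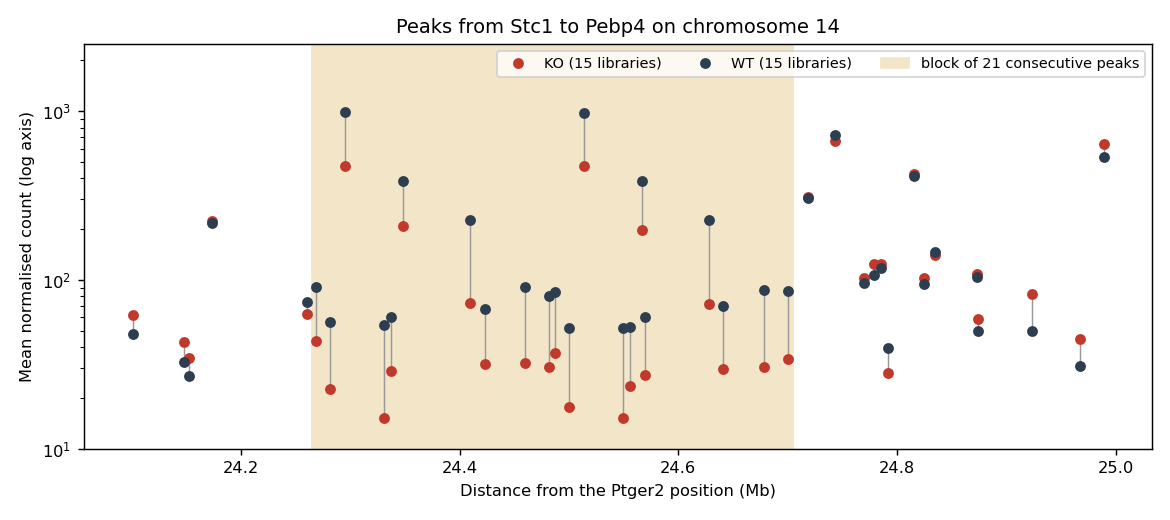
Mean normalised read count over the 15 KO and the 15 WT libraries, on a log axis, for consecutive peaks on chromosome 14 from Stc1 to Pebp4, by distance in Mb from Ptger2. Lines join the genotypes of a peak and the shaded stretch holds the block, where all 21 KO means lie at 0.28 to 0.542 of the WT means, while the genotypes lie close together at the flanking Slc25a37 and R3hcc1 peaks.

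Within the chromosome 15 window, the largest differences towards higher accessibility in KO cells lay between 30 and 35 Mb above Ptger4. A peak 49058 bases from Rrm2b (chr15:37874061-37874894), which encodes a p53-inducible subunit of ribonucleotide reductase, held 204.7 to 310.9 normalised reads with a median of 236.3 in KO libraries, against 1.585 to 14.33 with a median of 7.775 in WT libraries, from 3828 and 120 reads. Its mean was 30.4-fold higher in KO cells, with a log2 difference of 4.88 ± 0.17 (limma adjusted p = 9.13e-24). Further Rrm2b peaks were higher, by 2.72 at 37898585, 1.66 at 37885021 and 0.87 at 37905542. A peak assigned to Grhl2, a transcription factor of epithelia, at 37203077 held 76.56 to 199.2 in KO and 2.389 to 15.62 in WT libraries and differed by 3.99 ± 0.19. The 27 peaks between 37 and 38 Mb included 10 called in all 4 conditions, all of them higher in KO cells.

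An intron peak of Ncald, which encodes a neuronal calcium sensor, was high in KO cells and also responded to stimulation in both genotypes. It starts at 37656319 and is assigned to Gm49397. Untreated KO cells averaged 636 ± 109 normalised reads with stimulation (SD, n = 4) and 140 ± 50.6 without (n = 3), and untreated WT cells averaged 63.8 ± 7.14 with stimulation and 19.5 ± 8.69 without (n = 4 each). Stimulation raised it by 2.23 on the log2 scale in KO and 1.76 in WT cells, and the genotype difference over all conditions was 2.79 ± 0.13 (limma adjusted p = 1.08e-19). The Ncald promoter at 37790716 was higher by 0.49.

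Trio, which encodes a guanine nucleotide exchange factor, had 6 peaks called in all 4 conditions, and neighbouring ones differed in opposite directions. Its exon peak at 27825117 held 321.2 to 486.5 normalised reads in KO and 25.08 to 99.62 in WT libraries, and the exon peak at 27827742 held 22.08 to 88.86 in KO and 131.6 to 377.4 in WT libraries. The log2 differences were 2.93 ± 0.09 and -2.41 ± 0.08. The Trio intron peak at 27849341 held 213.5 to 569.3 in KO and 18.06 to 212.7 in WT libraries. Genotypes did not overlap in the exon peaks or in this one.

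Other signalling and housekeeping genes of the chromosome 15 window also had members of either sign. Ctnnd2, the gene for delta-catenin, had an intron peak at 30640274 with 3.021 to 27.81 normalised reads in KO and 52.86 to 328.1 in WT libraries. A peak assigned to Ywhaz, which encodes the adaptor 14-3-3 zeta, at 36852145 was higher by 2.71, and peaks assigned to Pabpc1, the poly(A)-binding protein gene, at 36642475 and 36640405 were lower by log2 differences of -2.97 and -1.52. The promoter of the ribosomal protein gene Rpl30 at 34442697 held 746.7 to 1048 in KO and 1163 to 1491 in WT libraries, a log2 difference of -0.54 ± 0.05 (limma adjusted p = 1.63e-11) with no overlap. The promoter of the Wnt receptor gene Fzd6 at 39005756 held 51.44 to 111.6 in KO and 121.4 to 178.3 in WT libraries. Spag1 had a promoter peak at 36178926 averaging 414 in KO and 220 in WT libraries and an intron peak at 36214405 averaging 331 in KO and 591 in WT libraries. Beside each other at Snx31, a sorting nexin gene, the peak at 36562496 held 34.15 to 97.21 in KO and 228.5 to 359.5 in WT libraries, and the peak at 36565439 held 152.1 to 229.7 in KO and 74.94 to 122 in WT libraries.

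The stretches nearer to Ptger4 also held both signs. Pdzd2, a scaffold protein gene, had intron peaks at 12423819 and 12429758 with log2 differences of -1.77 and -2.03 and another at 12667530 with 1.21, none of them with overlap between genotypes. At 12423819 the KO libraries held 99.36 to 242 normalised reads and the WT libraries 307.5 to 705.5. An intron peak of Cdh10, a cadherin gene, at 18951595 held 23.12 to 62.76 in KO and 5.06 to 18.97 in WT libraries. A peak of Drosha, the nuclease that starts microRNA processing, at 12872559 was higher by 1.69.

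Lists of genes that matter to lymphocytes differed in how many of their peaks were called in all 4 conditions, against 0.363% of all peaks and 6.63% of the members. The granzyme cluster, at 56 Mb on chromosome 14 and holding the killing enzymes of NK cells, had 15 peaks of 5 genes. limma called 0 of these 15 in untreated unstimulated cells and 0 in untreated stimulated cells, with 4 and 3 at unadjusted p-values under 0.05, and edgeR and DESeq2 called 0. With PGE2 and stimulation 9 of the 15 were higher and 1 lower in KO cells, against 20.5% and 19.7% of all peaks, with a median log2 difference of 0.44. The counts of higher and lower peaks that follow are for untreated unstimulated cells. There 1.09% of all peaks were higher and 0.636% lower, and 5.56% and 5.62% of the members. Of 141 peaks of 19 lymphocyte signalling genes on chromosome 14, 2 were higher and 4 lower, and the 4 called in all conditions were the Peli2 peaks. Of 41 peaks of 15 genes of innate immunity and cell death on that chromosome, 2 were higher and 0 lower, and both were at Lgals3. Of 84 peaks of 17 immune and signalling genes on chromosome 15, 13 were higher and 2 lower, and 11 were called in all conditions, 6 at Trio, 3 at Ywhaz and 1 each at Ncald and Rnf19a. Of 44 peaks of 16 housekeeping genes in the windows, 0 were higher and 5 lower, and the 3 called in all conditions were at Rpl30 and Pabpc1. The median log2 difference of each of these lists in untreated unstimulated cells lay between -0.04 and 0.14, against 0.00 over all peaks. Further lists lay below that range. The 7 peaks of the targeted receptors had a median of -0.19. The 45 peaks assigned to Dad1 or Abhd4, neighbours of the T cell receptor alpha locus, had -0.26. Of these 45, 4 were higher and 17 lower, and 9 were called in all conditions.

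The members responded to the treatments as often as other peaks did. Stimulation changed 54.4% of them in untreated KO cells and 56.6% in untreated WT cells, against 54.5% (KO) and 56.3% (WT) of all peaks. PGE2 changed 15.2% of the members in unstimulated and 39.6% in stimulated WT cells, against 14.9% and 40.5% of all peaks. In KO cells limma called 0 members for PGE2 in either state, with 64 at unadjusted p-values under 0.05 without stimulation and 79 with it, and edgeR and DESeq2 called 0. Over all peaks limma called 0% without and 0.0026% with stimulation. Among the 105 peaks that differed between genotypes in all conditions, stimulation changed 43.8% in KO cells and 42.9% in WT cells.

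Whether the genotype difference itself changed with stimulation in untreated cells was tested over all 38525 peaks, and all 3 called peaks (0.00779%) were members. Outside the windows limma called 0, with 1363 at unadjusted p-values under 0.05, and edgeR and DESeq2 called 0. The first lies in the T cell receptor alpha locus at chr14:53802254-53803069 and is assigned to Dad1. Untreated stimulated KO libraries held 290, 266.3, 322.2 and 321.1 normalised reads, against 112.3, 85.38, 107 and 114.5 in WT. Untreated unstimulated KO libraries held 99.7, 130.6 and 130.6, against 119.3, 132.2, 132.5 and 123.0 in WT. The genotypes overlapped without stimulation and were apart with it, and the change was 1.60 ± 0.18 on the log2 scale (limma adjusted p = 4.88e-06). With PGE2 the pattern was another one. Unstimulated KO libraries held 115.7, 101.7, 127.7 and 137.2 against 235.9, 254.1 and 271.2 in WT, and stimulated KO libraries held 264.7, 234.5, 308.7 and 318.6 against 315.1, 281.1, 256.8 and 237.4 in WT.

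The other two went the opposite way. A peak 2779 bases from Abhd4, which encodes a lipase of N-acyl phospholipids, at chr14:54271948-54273005 held 113.3, 157.7 and 148.9 normalised reads in untreated unstimulated KO libraries, against 32.19, 30.13, 25.53 and 32.24 in WT. With stimulation KO libraries held 85.39, 56.59, 94.65 and 72.18, against 64.76, 51.5, 56.28 and 70.28 in WT. The genotypes were apart only without stimulation among untreated cells, and the change was -1.85 ± 0.26 (limma adjusted p = 0.000534). A peak assigned to Ywhaz at chr15:36818620-36820540 held 193.4, 174.3 and 206.6 in untreated unstimulated KO libraries, against 37.69, 48.59, 29.45 and 56.13 in WT. With stimulation KO libraries held 166.4, 208.1, 199.4 and 230.7, against 113.3, 115.2, 107.8 and 134.5 in WT, a change of -1.40 ± 0.22 (limma adjusted p = 0.00322). At Ywhaz KO libraries lay above WT libraries in both states. Stimulation moved it by 0.06 in KO (limma adjusted p = 0.761) and by 1.47 in WT cells (limma adjusted p = 1.37e-10).

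**Figure D5:**
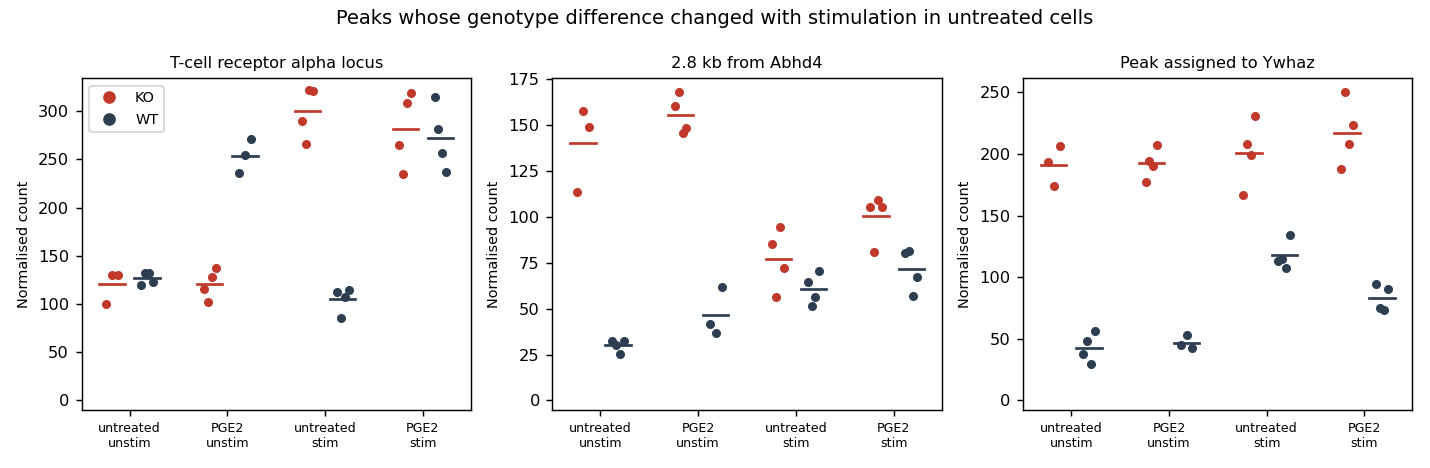
Normalised reads in each library for the 3 peaks whose genotype difference changed with stimulation in untreated cells, KO left and WT right within each condition, with bars at the group means. Among untreated cells the Dad1 peak separates the genotypes with stimulation, from 266.3 upward in KO against 114.5 at most in WT, and the Abhd4 peak separates them without it. With PGE2 the genotypes at the Dad1 peak overlap with stimulation and are apart without it.

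With PGE2 present, stimulation changed the genotype difference at 332 members (21%), against 20.3% of all peaks. PGE2 changed it at 101 members (6.38%) without stimulation, against 6.18%, and at 293 (18.5%) with stimulation, against 20%. These shares were near the background.

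At the limits of the windows the peaks were as follows. Just inside, the Fhit peak at 10315706 averaged 56.1 normalised reads in KO and 40.6 in WT libraries, the Cnmd peak at 79660903 averaged 119 in KO and 108 in WT, the Selenop peak at 3069525 averaged 76.9 in KO and 87.4 in WT, and the Lrp12 peak at 39942826 averaged 258 in KO and 160 in WT. Just outside, the Fhit peak at 9828627 averaged 27.7 in KO and 25.3 in WT, the Pcdh17 peak at 84442644 averaged 150 in KO and 154 in WT, and the Oxr1 peak at 41429199 averaged 28.7 in KO and 210 in WT. The Oxr1 peak was called in all 4 conditions, so the differences on chromosome 15 did not end at the window's limit.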

How the data were processed

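The 30 libraries are 15 KO and 15 WT ATAC-seq libraries in 8 groups. The submitters' processing notes name Trimmomatic 0.39, Bowtie2 2.4.1, MACS2 2.2.7.1 and the mm10 build, and DESeq2 was used, version not given. Handling of duplicates and of the transposase offset was not given in these sources. The deposited table holds signal: reads per peak divided by a size factor of each library. Every value was a whole multiple of 1 read's worth within 0.05 of a read (100% of values), so that reads were recovered. Depth was 8444350 to 20153816 reads in peaks per library. Peaks assigned to a gene keep the authors' assignment, and an assignment says nothing of expression.

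limma 3.58.1 (trend, moderated test) was fitted to log2(normalised reads + 1) over all 38525 peaks with a mean of at least 10, on 8 group means, and p-values were adjusted by the Benjamini-Hochberg method over all peaks. A peak is called at an adjusted p under 0.05. Folds on this scale understate changes at low levels. The count tests edgeR 4.0.16 and DESeq2 1.42.0 were run on the recovered reads as alternatives, and the fit was tested on simulated data. Same-numbered replicates deviated together with correlations of 0.13 to 0.21 in untreated stimulated cells and 0 to 0.11 in the other conditions. Most KO libraries matched the WT library of their own number best. The exceptions were KO replicates 3 and 4 in untreated unstimulated cells, 4 in untreated stimulated cells and 1 with PGE2 and stimulation. The main fit holds no replicate block in any condition, and a fit with one was an alternative. Named peaks are those of the targeted genes, up to 8 per direction and window with a mean of at least 50 among those called in all 4 conditions, up to 4 genes per list and the 10 with the strongest change per interaction. Other peaks given with values were chosen after their values were seen. The members and gene lists were chosen with earlier results of these data known. The alternatives for the count called in all 4 conditions were added after the data were seen. Group sizes and depth limit the precision, and intervals for counts of 0 cover counting error only.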

Additional observations from a re-analysis of the deposited data

Results flagged for a closer look

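In 7 groups of 4 libraries, of 180 tested over 30 named peaks, 1 library stood apart from the other 3, where chance gives about 1 in 20 groups. The Peli2 peak at 48225737 had 74.9 normalised reads in KO untreated stimulated replicate 2 (the others 29.44 to 32.51) and 1187 in WT PGE2 stimulated replicate 1 (the others 952.5 to 985.4). The Pnp2 promoter had 2.443 in KO PGE2 stimulated replicate 3, with the others at 0. The Ptger4 exon peak had 553.4 in WT PGE2 stimulated replicate 4 (the others 603.5 to 607.3). In KO PGE2 stimulated replicate 1 the Snx31 peak at 36562496 had 34.15 (the others 66.79 to 68.54) and the Grhl2 peak at 37203077 had 199.2 (the others 118.1 to 129.9). The Rrm2b peak at 37874061 had 204.7 in KO untreated stimulated replicate 2 (the others 235.4 to 237.0).

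The genotype difference changed between conditions at the peaks that follow, each by limma's test of the change itself, as the KO minus WT difference with the stimulus or PGE2 minus that without it, on the log2 scale. The adjusted p-values (limma, Benjamini-Hochberg) lay between 2.46e-09 and 0.00322. With stimulation of untreated cells the change was 1.60 at the Dad1 peak at 53802254, -1.85 at the Abhd4 peak at 54271948 and -1.40 at the Ywhaz peak at 36818620. With stimulation of PGE2-treated cells it was 1.06 at Dad1 (54224208), 1.66 at Ankrd46, 1.16 at the Gzmb promoter (56261712) and 2.25 at the Gzmb exon (56259415), 1.39 at Ptk2b, 1.24 at Gm49364, 0.91 at C9, 1.14 at Capn7, 2.11 at Gch1 and 1.77 at Zmiz1. Gzmb encodes granzyme B, whose regulatory sequence drives the Cre in KO cells, and the part of the Cre in these values was not tested.

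With PGE2 in unstimulated cells the change was -2.27 at Siah3, -1.61 at Gm45924, -1.79 at Ccdc66, -1.02 at C9, -1.57 at Fbxo34, -2.12 at the Trio intron peak, -2.83 at Ankrd33b, -2.34 at 4930556M19Rik, -0.76 at Akap11 and -1.16 at Rubcnl. All 10 were negative, the more frequent direction over all peaks. Of all peaks, 4.94% had a called negative and 1.24% a called positive change, against 5.3% and 1.07% of the members. With PGE2 in stimulated cells it was 1.57 at Lcp1, 1.46 at Erc2, -1.19 at Ltb4r1, -1.47 at Dad1 (53802254), -1.28 at Pdzd2, -1.61 at Dap, -1.07 at Tspan14, -1.95 at Peli2, -1.52 at Ank and -0.86 at Akap11. The response of WT cells to PGE2 enters every one of these PGE2 comparisons.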

How the results depend on the processing

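No averaged difference reversed under any alternative at the 82 peaks named by rule. All 225 alternative counts of members under other tools, scalings, filters, pseudocounts, group choices or left-out libraries were within 1.5 times the value given. Windows of 20 and 10 Mb held fewer peaks by construction, and the share called was higher within 10 Mb. They gave 93 (11.2%) and 83 (21.4%) called members in untreated unstimulated cells, against 1.73% of all peaks. With PGE2 they gave 191 (23%) and 126 (32.5%), against 14.4%. In untreated stimulated cells they gave 78 (9.38%) and 75 (19.3%), against 0.724%. With PGE2 and stimulation they gave 376 (45.2%) and 204 (52.6%), against 40.2%. Called in all 4 conditions were 55 (6.61%) and 53 (13.7%), against 0.363%. Leaving out 1 library at a time gave 121 to 163, 295 to 356, 136 to 148 and 610 to 691 in the same order of conditions, 680 to 755 for the difference averaged over conditions and 93 to 108 for all 4 conditions. For the change of the genotype difference it gave 3 to 4 with stimulation of untreated cells, 246 to 363 with stimulation of PGE2-treated cells, 77 to 117 with PGE2 in unstimulated and 240 to 294 with PGE2 in stimulated cells. The count over all peaks moved more than the members. DESeq2 called 1058 peaks in untreated unstimulated and 510 in untreated stimulated cells, against 665 and 279 by limma, while its members were 209 and 178. With replicate number as a block, the counts were 204 members and 1016 peaks in untreated unstimulated cells. With PGE2 they were 443 members and 6928 peaks, against 383 and 5566 without a block. With PGE2 and stimulation they were 770 members and 16891 peaks, against 707 and 15468. In all 4 conditions they were 121 members and 197 peaks, against 105 and 140. Outside untreated stimulated cells, same-numbered replicates correlated at 0 to 0.11. Single peaks were compared for the difference averaged over the 4 conditions only, at the 82 peaks named by rule. Of these 1 lost its call, the Ptger4 promoter, which without WT PGE2 unstimulated replicate 4 was 0.13 (limma adjusted p = 0.0549) against 0.15. In 10 alternative fits a peak gained a call, at Capn7, Gm49364 or Pdzd2. Calls of single peaks within a condition or for a change between conditions were not compared in this way. Groups of 3 or 4 libraries limit what was detectable, and at peaks with under 10 normalised reads in the lower genotype the size of a fold rests on few reads.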

Other observations

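Outside both windows 35 peaks were called in all 4 conditions in 1 direction. Chromosome 15 beyond the window held 9 of them, between 41.4 and 54.3 Mb, 4 higher and 5 lower in KO cells. The Tnfrsf11b peak at 54113858, of the gene for osteoprotegerin, averaged 271 normalised reads in KO and 11.7 in WT libraries. Chromosome 5 held 12, of which 7 lay in the 5 Mb bin from 15 Mb and 4 in the bin from 60 Mb. Chromosome 13 held 5 and other chromosomes 9. The Pgk1 promoter peak on chromosome X averaged 1400 in KO and 643 in WT libraries, and its part in other results was not tested.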
